A study of Sus scrofa with 3 samples.

Results

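Superoxide dismutases, catalase, glutathione peroxidases and peroxiredoxins are the enzymes that remove superoxide and peroxides directly. Superoxide dismutases turn superoxide into hydrogen peroxide, which catalase breaks down in peroxisomes, and which glutathione peroxidases and peroxiredoxins reduce with electrons from glutathione or thioredoxin. The liver is rich in these enzymes because its mitochondria, peroxisomes and cytochrome P450 enzymes release both oxidants, and fatty liver disease is often studied together with oxidative stress. In the present data, 10 genes of these families were looked up by symbol, namely SOD1, SOD2, SOD3, CAT, GPX1, GPX3, GPX4, PRDX1, PRDX5 and PRDX6. Of them, 9 were found among the 22945 mRNA features. SOD3 was not listed under its symbol, but the feature LOC780439 carries the NCBI gene ID that RefSeq gives to SOD3, so its values are given beside those of the other 9 and are not part of their counts.

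Liver RNA came from Chinese Wuzhishan pigs, all male and labelled as 6 to 7 months old, kept on a diet rich in fat and cholesterol (HFC). The study's methods give this age for the pigs as obtained, before acclimation and the weeks on the diet. The groups were intact males (IM), castrated males (CM) and castrated males treated with testosterone (CMT). By the methods of the study, castration was surgical, intact pigs had a sham operation, and testosterone propionate was injected every week from the day of castration. No group had a normal diet. Equal amounts of RNA were pooled within each group, from 3 pigs by the labels and possibly more by the methods, and each pool gave 1 library, so differences between groups could not be checked against replicates and how far pigs of 1 group varied is not known.

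Levels are given as FPKM (fragments per kilobase of exon, divided by a factor for each library), as deposited. Where 3 values follow each other without names they are those of IM, CM and CMT in this order. Read numbers behind the FPKM values could be recovered for 23090 of the 24277 features above 0, and summed to 32197633, 36126736 and 25419904. On 1 kilobase an FPKM of 1 stood for 2.51, 3.42 and 2.04 reads. The values are therefore on a larger scale than is usual for FPKM and are compared only among these libraries. These factors were not in proportion to the recovered reads, so ratios as deposited differ from ratios at equal recovered reads. A gene was counted as apart between libraries when its FPKM was at least 1 in all 3 libraries and its ratio was at least 1.5-fold. All 9 genes met the minimum, and the lowest value among them was an FPKM of 369. Intervals are 95% exact intervals for counting error only and say nothing about differences between pigs.

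Together the 9 genes made up 0.702% of the summed FPKM in IM, 0.725% in CM and 0.629% in CMT. CAT was the most abundant of them in every library, at rank 40, 34 and 52 of all mRNA features, and held 43.4%, 46.0% and 40.0% of the FPKM of the 9 genes. SOD1 followed at rank 89, 146 and 97, and GPX1 was at rank 172, 213 and 168. In IM the order then ran PRDX6, PRDX1, GPX3, PRDX5, GPX4, SOD2 and the SOD3 feature, where only PRDX1 and GPX3 had overlapping counting intervals. In CM, GPX3 moved up to the third place, above GPX1, and the intervals of PRDX1 and PRDX5 overlapped. In CMT, GPX3 was in the eighth place, above SOD2 and the SOD3 feature only.

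**Figure D1:**
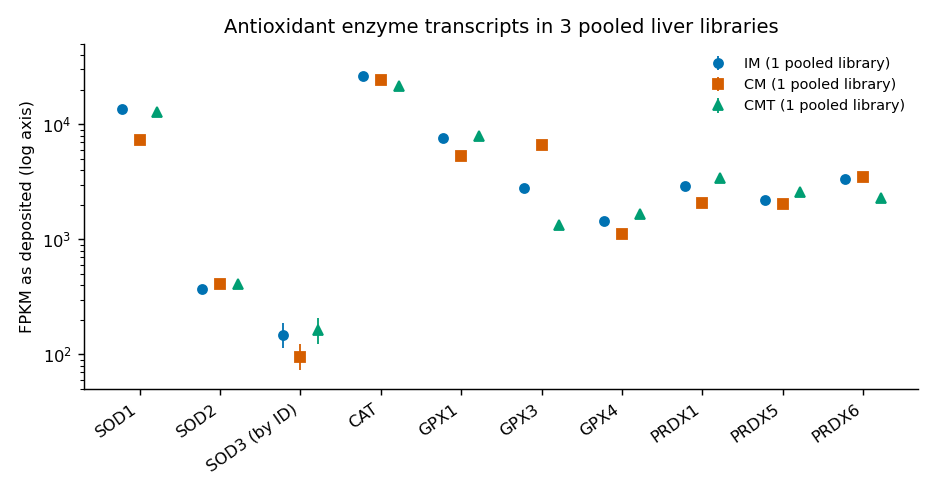
FPKM of the antioxidant enzyme genes on a log axis in the pooled libraries of IM, CM and CMT pigs. Each symbol is 1 library, and bars, mostly hidden by the symbols, are 95% counting intervals. SOD1 was at 7321 in CM against 13683 in IM and 12883 in CMT, and GPX3 was at 6654 in CM against 2773 and 1330.

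Between CM and IM, which addresses the effect of castration on the HFC diet, SOD1 was lower and GPX3 was higher in CM, and the other 7 genes lay within 1.5-fold. Of the 15613 mRNA features that met the FPKM minimum, 11.1% were at least 1.5-fold higher and 12.1% at least 1.5-fold lower in CM, beside 1 of the 9 genes in each direction. On the log2 scale the median of CM relative to IM was -0.13 for the 9 genes and -0.020 for all features. Where every library had an FPKM of 100 or more, which held for 4626 features and all 9 genes, 3.89% were higher and 11.5% lower, a minimum chosen after seeing the data. In whole liver, fewer cells of a type and less RNA per cell cannot be told apart.

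Between CMT and CM, which addresses testosterone replacement, SOD1 and PRDX1 were higher in CMT, and GPX3 and PRDX6 were lower. Of all features, 12.1% were at least 1.5-fold higher and 13.5% lower in CMT, beside 2 of the 9 genes in each direction. The median log2 ratio was 0.36 for the 9 genes and 0.013 for all features, and 0.14 for features at 100 or more, of which 14.1% were higher and 4.19% lower. The count of the 9 genes between CMT and CM depended on how the libraries were scaled. It stayed at 4 when scaled by the median ratio or by the upper quartile. With FPKM values brought to equal recovered reads, every log2 ratio moved by 0.28 between CM and IM and by -0.24 between CMT and CM. The median log2 ratio of all features was then 0.26 for CM to IM and -0.23 for CMT to CM. SOD1 and PRDX1 were then inside 1.5-fold between CMT and CM, at log2 ratios of 0.58 and 0.48, so that 0 of the 9 genes were counted as higher. On that scale 22.0% of all features were higher in CM relative to IM and 6.42% lower, and 6.82% were higher in CMT relative to CM and 22.4% lower.

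Between CMT and IM, 1 of the 9 genes was apart, GPX3, which was lower in CMT. At least 1.5-fold differences were found in 6.67% of all features in the higher and 10.1% in the lower direction. The median log2 ratio of the 9 genes was 0.04. The comparisons share libraries, since the CM library enters both the first and the second, so they are not independent of each other.

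**Figure D2:**
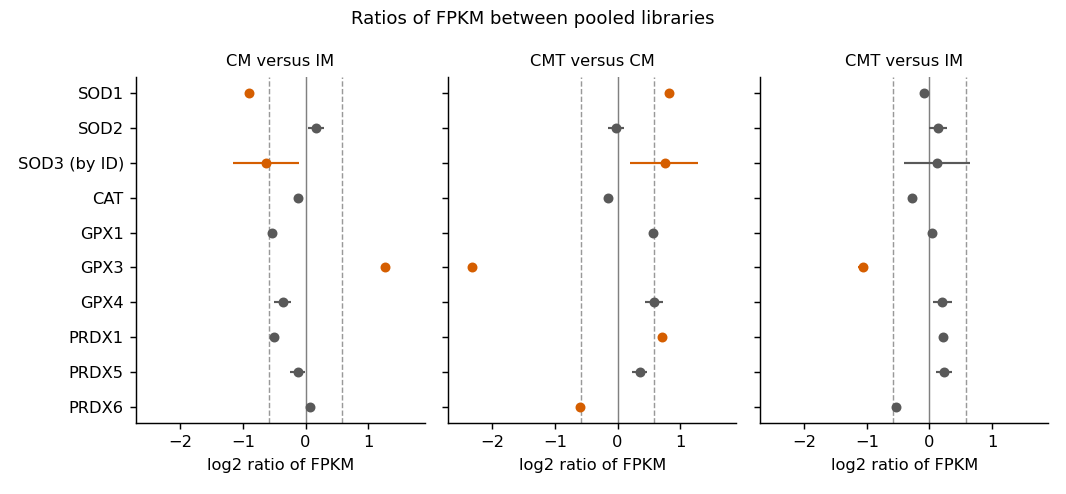
Log2 ratios of FPKM in 3 panels, CM to IM, CMT to CM, and CMT to IM. Points are ratios of 2 pooled libraries, bars are 95% counting intervals, dashed lines mark 1.5-fold, and orange marks genes past it. GPX3 lay outside the dashed lines in every panel, at 1.26, -2.32 and -1.06, and SOD1 in the first and second, at -0.90 and 0.82.

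SOD1, the copper and zinc superoxide dismutase of the cytosol, had an FPKM of 13683 in IM but 7321 in CM, and 12883 in CMT. CM was the low library, and CMT and IM lay close to each other. CM had 0.535 times the level of IM (0.517 to 0.554), the ratio of CMT to CM was 1.76 (1.70 to 1.82), and that of CMT to IM was 0.942 (0.910 to 0.974). SOD1 was the only 1 of the 9 genes whose CM value was below both other libraries by 1.5-fold or more, a pattern met by 7.12% of all features. Its reads numbered 15798, 11517 and 12089 in IM, CM and CMT, on a recovered length of 460 bases. With equal recovered reads the log2 ratio of CM to IM was -0.62 in place of -0.90, still past 1.5-fold, and that of CMT to CM was 0.58 in place of 0.82.

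CCS, the chaperone that loads copper into SOD1, was low in CM as well. Its FPKM was 1109, 555 and 1255, with a ratio of CM to IM of 0.501 and a log2 ratio of CMT to CM of 1.18. The FPKM ratio of CCS to SOD1 within a library, which no scaling between libraries can move, was 0.0810, 0.0758 and 0.0974. Of the copper genes, ATOX1 and SLC31A1 were chosen here after their values were seen, and both were within 1.5-fold of IM in CM. Relative to CM they were also within 1.5-fold in CMT. ATP7B and CP, chosen on the same basis, were past it in CMT relative to CM, at ratios of 2.01 and 1.98. MT1A, given below, went the other way. ATOX1, a cytosolic copper chaperone, was at 4533, 5359 and 6175, and SLC31A1, the copper importer, was at 633, 558 and 686.

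SOD2, the manganese enzyme of the mitochondrial matrix, had an FPKM of 369 in IM but 413 in CM, and 406 in CMT. The libraries differed little. Relative to IM, CM was at 1.12 (1.03 to 1.22), and the ratio of CMT to CM was 0.982 (0.897 to 1.08). SOD1 was low in CM while SOD2 was not, and the FPKM ratio of SOD1 to SOD2 was 37.1, 17.7 and 31.7. The feature of SOD3, the secreted superoxide dismutase, was at 149, 95.6 and 162, and CM was again the low library. Its ratio of CM to IM was 0.643 with a wide interval of 0.450 to 0.930, since it rested on 137 and 120 reads, and its ratio of CMT to CM was 1.69 (1.15 to 2.44). With equal recovered reads the SOD3 feature had a log2 ratio of CM to IM of -0.36 and of CMT to CM of 0.52, both inside 1.5-fold.

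CAT, the haem enzyme of peroxisomes, had an FPKM of 26379, 24145 and 21629. The values of the 3 libraries were close, with IM highest and CMT lowest. CM stood at 0.915 times IM (0.907 to 0.924), which is lower in CM as deposited but becomes higher, at a log2 ratio of 0.13 with equal column sums and 0.15 with equal recovered reads. The ratio of CMT to CM was 0.896 (0.886 to 0.905), and that of CMT to IM 0.820 (0.811 to 0.829). The FPKM of SOD1 was 0.519 times that of CAT in IM, 0.303 times in CM and 0.596 times in CMT, and these ratios within a library do not depend on scaling.

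GPX3, the secreted glutathione peroxidase of plasma, differed most among the 9 genes. Its FPKM was 2773 in IM but 6654 in CM, and 1330 in CMT, which put CM highest and CMT lowest. CM was 2.40 times IM (2.33 to 2.47), the ratio of CMT to CM was 0.200 (0.191 to 0.209), and that of CMT to IM was 0.479 (0.456 to 0.504). A value at least 1.5-fold higher in CM than in both other libraries was found in 6.87% of all features, and GPX3 was the 1 gene of the 9 with it. Its reads numbered 10908, 35660 and 4250 in IM, CM and CMT. Its share of the FPKM of the 9 genes was 4.56%, 12.7% and 2.46%.

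GPX1, the glutathione peroxidase of the cytosol and mitochondria, was lowest in CM. Its FPKM was 7658 in IM but 5300 in CM, and 7880 in CMT, and IM and CMT were nearly equal. The ratio of CM to IM was 0.692 (0.670 to 0.715) and that of CMT to CM was 1.49 (1.44 to 1.54), so both were just inside the threshold. The FPKM ratio of GPX3 to GPX1 was 0.362, 1.26 and 0.169, so that the secreted form exceeded the intracellular form in CM and in neither other library. GPX4, which reduces lipid hydroperoxides in membranes, was at 1433, 1111 and 1656. It was also lowest in CM, with a ratio of CM to IM of 0.775 (0.703 to 0.855) and of CMT to CM of 1.49 (1.35 to 1.65), the second just inside 1.5-fold.

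PRDX1, a cytosolic peroxiredoxin, had an FPKM of 2935, 2072 and 3402. CM was low and CMT was somewhat above IM. The ratio of CM to IM was 0.706 (0.675 to 0.739), inside 1.5-fold, and that of CMT to CM was 1.64 (1.57 to 1.72), past it. PRDX5, found in mitochondria, peroxisomes and cytosol, was at 2211, 2023 and 2591. Its ratio of CM to IM was 0.915 (0.844 to 0.992), lower in CM as deposited and higher at a log2 ratio of 0.13 with equal column sums and 0.15 with equal recovered reads. Its ratio of CMT to CM was 1.28 (1.18 to 1.39).

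PRDX6, a peroxiredoxin that acts with glutathione and also cleaves phospholipids, did not share the pattern of PRDX1. Its FPKM was 3336, 3507 and 2303, and CMT was the low library. The ratio of CM to IM was 1.05 (1.02 to 1.08), that of CMT to CM was 0.657 (0.633 to 0.681), past 1.5-fold at 1.52, and that of CMT to IM was 0.690 (0.664 to 0.718), inside it at 1.45. PRDX6 exceeded PRDX1 by a ratio of 1.14 in IM and 1.69 in CM, and was below it in CMT, at 0.677.

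**Figure D3:**
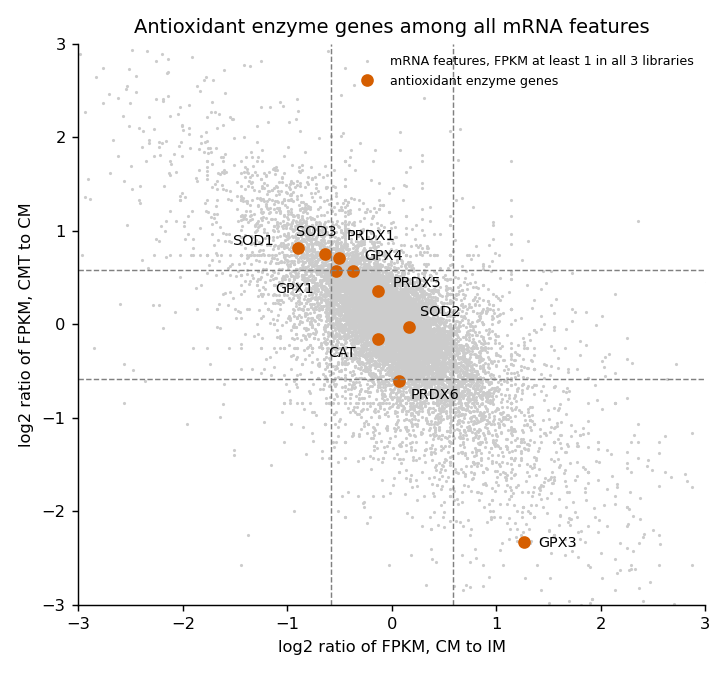
Log2 ratio of FPKM of CM to IM (horizontal) and of CMT to CM (vertical) for mRNA features that met the FPKM minimum (grey) and for the antioxidant enzyme genes (orange). Dashed lines mark 1.5-fold, 125 features lie outside the plotted range of 3 in either direction, and the downward slope is built in because the CM value enters both axes. SOD1 lay at -0.90 and 0.82, GPX3 at 1.26 and -2.32, and SOD2 near the centre at 0.16 and -0.03.

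Genes with the most similar pattern were taken as the nearest in the plane of these log2 ratios, among 12127 features with an FPKM of at least 10. For SOD1 they were LOC100519022 and TM7SF2, an enzyme of sterol synthesis, each at a distance of 0.013, and 35 features lay within 0.1. For PRDX1 they were SLC6A12 and REEP5, with 109 features within 0.1, and for PRDX6 they were BEX1 and LOC100623030, with 65. No feature lay within 0.1 of GPX3 (0 of 12127), whose nearest were LOC100154768 at 0.14 and ILDR2 at 0.15. The standard deviation of these features was 0.51 for CM to IM and 0.58 for CMT to CM. GPX3 lay far out, at 1.26 and -2.32, and the number of neighbours also depends on how far out a gene lies. Counting error can change which features are nearest: a distance of 0.013 was smaller than the interval of SOD1 for CM to IM, -0.95 to -0.85.

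Among the other genes of these families, PRDX3, the peroxiredoxin of the mitochondrial matrix, had an FPKM of 3406, 2495 and 4500. It was lowest in CM, with log2 ratios of -0.45 to IM and 0.85 from CM to CMT. PRDX2, a cytosolic form abundant in red blood cells, was flat at 760, 747 and 729, and PRDX4, the form of the endoplasmic reticulum, was at 1108, 1243 and 1227. GPX2, the gut form, was at 2.99, 5.12 and 2.45, on 6, 14 and 4 reads, and its ratio of CM to IM had an interval of 0.391 to 10.3. GPX7, of the endoplasmic reticulum and matched by gene ID, was at 6.94, 12.4 and 11.7, and its ratio of CM to IM had a counting interval of 0.729 to 4.60. GPX8 had a ratio of CM to IM of 1.10 with an interval of 0.502 to 2.51, so a difference could not be seen at this depth. GPX5 and GPX6 were listed at 0 in all libraries.

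A list of 18 thioredoxin, glutaredoxin, sestrin and methionine sulfoxide reductase genes was read, of which 17 were found and met the minimum. It holds genes that recharge peroxiredoxins but also genes with other roles, and the counts are those of the whole list. Between CM and IM, 1 of the 17 was at least 1.5-fold higher and 6 were lower, beside 11.1% and 12.1% of all features, with a median log2 ratio of -0.29. The 1 that was higher was SRXN1, sulfiredoxin, which restores overoxidised peroxiredoxins and was matched by gene ID. Its FPKM was 25.8, 168 and 21.1, with log2 ratios of 2.70 and -2.99, so CM stood far above the other libraries. TXNIP, which binds and inhibits thioredoxin, was at 4952, 1577 and 2523. SESN1, a sestrin, was at 299, 114 and 264, and GLRX5, a mitochondrial glutaredoxin for iron-sulfur cluster assembly, was at 1046, 521 and 983, so that both were lowest in CM. TXN, thioredoxin itself, GCLC, GSR, SEPP1, NFE2L2 and KEAP1 are given because of their roles and after their values were seen. TXN was at 2823, 3587 and 3219. In CMT versus CM, 4 of the 17 were higher and 4 lower, beside 12.1% and 13.5% of all features.

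Genes that supply glutathione, which glutathione peroxidases use, were found for 11 of 12 listed. Relative to IM, 2 of the 11 were at least 1.5-fold higher in CM and 3 lower, with a median of -0.36, where all features gave 11.1% and 12.1%. Relative to CM, 4 were higher in CMT and 2 lower, with a median of 0.50, where all features gave 12.1% and 13.5%. GNMT, which consumes S-adenosylmethionine, was at 4871, 1536 and 4712. CDO1, which turns cysteine toward taurine, was at 9343, 4791 and 12532, and CTH, which makes cysteine, was at 2046, 1152 and 1629. These were low in CM. SLC7A11, the cystine importer, was counted as higher in CM at a ratio to IM of 2.61, but it rested on 9 and 32 reads and its counting interval of 0.947 to 12.1 included 1. GCLC, the catalytic subunit of the first step of glutathione synthesis, was at 493, 780 and 503, and GSR, which regenerates glutathione, was at 263, 289 and 205.

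NADPH is the source of electrons for both systems. Of 11 listed genes 10 were found and 9 met the minimum, since IDH1 was listed at 0 in all libraries, although it is a common liver gene. In CM versus IM, 1 of the 9 was higher and 1 lower, near the 11.1% and 12.1% of all features. NNT, the mitochondrial transhydrogenase that makes NADPH, was at 993, 463 and 974, and ME3, a mitochondrial malic enzyme, was at 55.1, 90.8 and 48.4. TKT, of the pentose phosphate pathway, was at 929.7, 743 and 1025.

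Genes whose products make superoxide or hydrogen peroxide were found for 25 of 26 listed, and 23 met the minimum. In CM versus IM, 2 of the 23 were higher and 5 lower, where all features gave 11.1% and 12.1%. In CMT versus CM, 9 were higher and 4 lower, where all features gave 12.1% and 13.5%. CYP2E1, a cytochrome P450 known to leak oxidants, had an FPKM of 3148, 14546 and 54.4, with a log2 ratio of CM to IM of 2.21 and of CMT to CM of -8.06. MAOB, an amine oxidase, was at 4434, 2005 and 4365, so that it was lowest in CM. UOX, the peroxisomal urate oxidase, was chosen here after its values were seen and had the same low library, at 6476, 3144 and 6409. DUOX2 and NOX1, which make hydrogen peroxide and superoxide, were near the minimum, at 3.84, 1.02 and 1.80 and at 2.49, 5.78 and 3.06, and the counting interval of the ratio of CM to IM for NOX1, 0.892 to 7.11, included 1.

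The glutathione peroxidases GPX1, GPX3 and GPX4 contain selenocysteine. Of 10 genes for selenium handling and selenoprotein synthesis, all were found and 9 met the minimum. Between CM and IM, 1 of the 9 was higher and 2 were lower, beside 11.1% and 12.1% of all features. SEPP1, the plasma selenium carrier, was at 34310, 38481 and 35606. SEPHS2, which makes the selenium donor, was at 1786, 1044 and 1957, and SEPSECS, which forms selenocysteine on its tRNA, was at 122, 66.2 and 74.8. SCLY, which recovers selenium from selenocysteine, was at 247, 174 and 246, and LRP8, a receptor for the carrier, was low at 2.14, 3.67 and 2.11, with no recovered reads to give an interval.

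Of 19 listed genes for metal and haem supply, 16 were found. Of the 16, CM had 1 above IM by at least 1.5-fold and 0 below, beside 11.1% and 12.1% of all features. That gene was MT1A, a metallothionein that binds zinc and copper, at 14069, 37009 and 4529, the same order of libraries as GPX3. HMOX2, a haem oxygenase, was at 1236, 868 and 1083, and SLC39A14, a zinc, iron and manganese importer, was at 619, 453 and 600.2. SLC30A10, a manganese exporter, had a ratio of CM to IM of 1.38.

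Among 13 of 15 listed regulators that were found, 1 was higher and 5 lower in CM versus IM, beside 11.1% and 12.1% of all features, with a median of -0.38. NFE2L2, the NRF2 factor that drives many antioxidant genes, was at 471, 485 and 401. CMT was lowest, at 0.825 times CM (0.766 to 0.889), which is inside 1.5-fold. KEAP1, which inhibits NFE2L2, was at 131, 133 and 142. FOXO1, a factor known to act on SOD2 and CAT, was at 265, 67.1 and 127, and FOXO3 was at 284, 158 and 176. PPARGC1A, a coactivator of mitochondrial genes, was at 152, 60.8 and 55.6, and the low PPARGC1B, for which no reads were recovered, was at 4.42, 7.94 and 4.66. CAT reaches its compartment by peroxisomal import, for which all 11 listed genes were found. Relative to IM, 0 of the 11 were higher and 2 lower in CM, beside 11.1% and 12.1% of all features, and relative to CM 3 were higher and 0 lower in CMT, beside 12.1% and 13.5%. PEX5, the import receptor, was at 256, 171 and 317, PEX14, its docking partner, was at 193, 119 and 214, and PEX11A was at 97.1, 67.2 and 94.2.

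**Figure D4:**
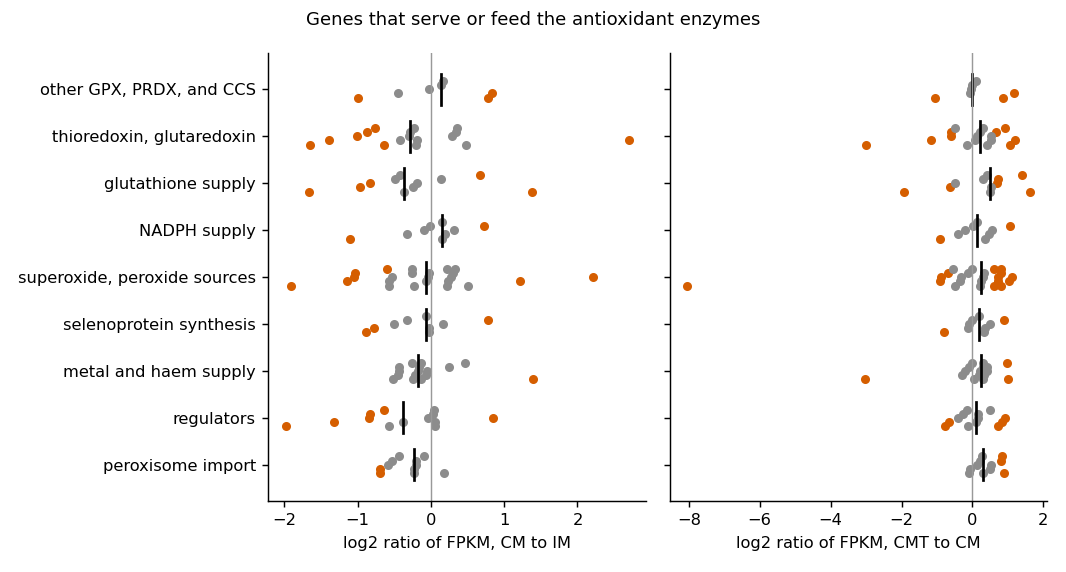
Log2 ratios of FPKM of CM to IM (left) and CMT to CM (right) for genes that serve or feed the antioxidant enzymes and met the FPKM minimum. Each point is 1 gene, orange marks at least 1.5-fold and black bars are list medians. The point far to the right in the left panel is SRXN1 at 2.70, and the point far to the left in the right panel is CYP2E1 at -8.06.

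Markers of the cell types of the liver were read in the same libraries. Hepatocyte markers were high in all libraries, with 7 of 8 found, sums of 1026770, 752642 and 794666 and ALB at 690375, 476360 and 445509. The median log2 ratio of this list was -0.45 for CM to IM and 0.29 for CMT to CM. ALB was lowest in CMT and TF in IM, while FGB, APOB, TTR, SERPINA1 and APOA1 were lowest in CM, as SOD1, GPX1 and PRDX1 were. The part of hepatocytes in those values was not tested. Erythroid markers were found for 4 of 7 and summed to 17242, 3416 and 5186, nearly all of it HBB. AHSP was listed at 0 in CM but rested on only 4, 0 and 2 reads. SOD1, GPX1 and PRDX1 were also lowest in CM, and the part of blood in these values was not tested. T and NK cell markers, with 7 of 7 found, summed to 574, 810 and 459, and cholangiocyte markers, with 5 of 5 found, summed to 93.8, 167 and 106, which is the order of CM above the others that GPX3 had. Their part in the GPX3 values was not tested either. Markers of Kupffer cells and macrophages, with 7 of 8 found, summed to 16178, 16031.5 and 17523, a sum carried by the complement genes C1QA, C1QB and C1QC. Within that list MARCO, at 414, 82.8 and 317, CD163, at 1305, 909 and 1386, and C1QA were lowest in CM, as SOD1 and GPX1 were. C1QB and C1QC were lowest in IM, and CD14 and CSF1R in CMT. The median log2 ratio of the list was -0.10 for CM to IM and 0.12 for CMT to CM. The part of these cells in the SOD1 and GPX1 values was not tested. Markers of stellate cells summed to 1458, 1560 and 1311, with 7 of 7 found, those of endothelium to 3370, 2698 and 3170, with 5 of 6, and those of neutrophils to 147, 62.6 and 36.0, with 4 of 4. Of the neutrophil markers, S100A8, S100A9 and S100A12 fell in that order of libraries but rested on 46 reads or fewer in each. CSF3R did not, at 13.4, 17.4 and 15.4.

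**Figure D5:**
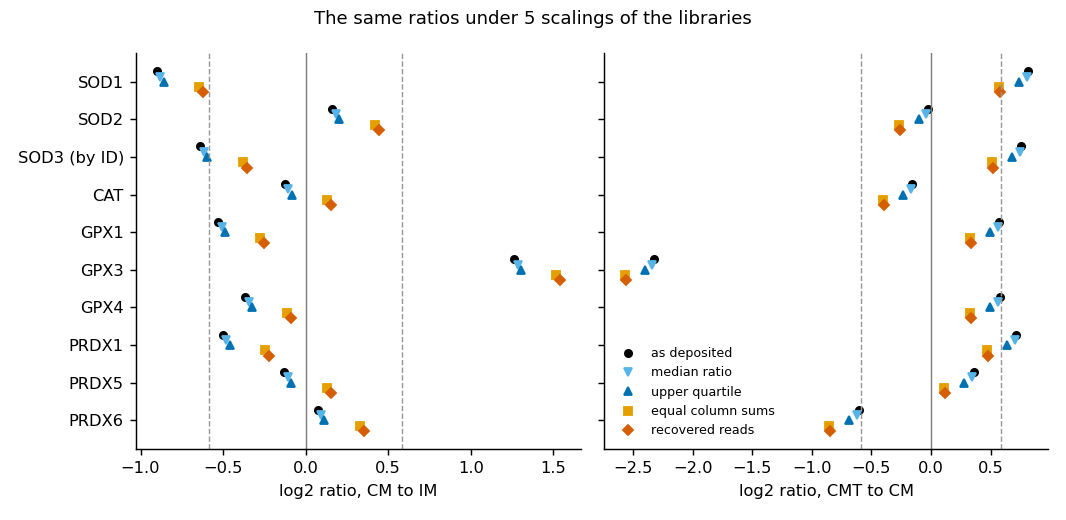
Log2 ratios of the antioxidant enzyme genes for CM to IM (left) and CMT to CM (right) as deposited and after 4 other scalings of the libraries. Dashed lines mark 1.5-fold. CAT and PRDX5 crossed from below to above 0 in the left panel when scaled to equal column sums or equal recovered reads, while SOD1 stayed below and GPX3 above 0.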

How the data were processed

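Liver RNA pooled within each group was sequenced as 1 library each for IM, CM and CMT. Per the labels, the authors pooled equal amounts of total RNA and made libraries with a TruSeq kit, and the submitters' processing notes name FastQC and TopHat. Reads were mapped to Sscrofa10.2 by the study's methods. The counting program, its annotation and how reads with several mapping places were assigned are not given in the sources used here. The authors deposited FPKM values per feature, which were used as they are, with no pseudocount.

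Genes were matched by symbol where it was listed. SOD3, GPX7, SRXN1, SEPSECS, ALAD, KRT7, KRT19 and AHSP were matched by NCBI gene ID through a RefSeq table of another assembly. No coordinates were taken from it. MSRB1, CYBB, DAO, HMOX2 and PPARGC1A were matched by a synonym. The members and all gene lists were chosen with earlier results of these data known. With 1 library per group no test was possible, so ratios of FPKM are given, with at least 1.5-fold as the threshold among features whose FPKM was 1 or more in each of the 3 libraries. Named genes were the members, their family genes, and the 4 genes of each other list with the largest log2 ratio of CM to IM in either direction. For each member past 1.5-fold the 2 nearest features were named as well, and other genes are marked in the text. Some genes that this rule names are not reported here. Read numbers were recovered from the steps between FPKM values with a tolerance of 0.01 reads. Most were even, so they were divided by 2 before 95% exact binomial intervals were computed. A common factor can be lost, so recovered lengths and reads can be too small. The recovery was tested on simulated data. Alternatives were other scalings, FPKM minimums of 10 and 100, a pseudocount of 1 and a 2-fold threshold. Calculations used Python 3.11.15, numpy 2.4.6, pandas 2.3.3 and scipy 1.17.1.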

Additional observations from a re-analysis of the deposited data

How the results depend on the processing

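At a 2-fold threshold the number of the 9 genes apart was 1 in place of 2 between CM and IM (GPX3) and 1 in place of 4 between CMT and CM (GPX3). The shares of all features in this text are those at 1.5-fold, so these 2-fold counts have no share to be read beside. Scaled to equal column sums or to equal recovered reads, 2 genes in place of 4 were apart between CMT and CM, GPX3 and PRDX6. By the construction of these scalings every ratio moves by the same factor. Scaling by the median ratio or by the upper quartile left the count at 4. Between CM and IM the count was 2 under each of the scalings. The count between CMT and IM was 1 under every alternative run. Of 150 ratios of single genes under an alternative, 104 moved by less than their counting interval and 46 by more, and 4 turned direction, those of CAT and PRDX5 between CM and IM given above. Equal column sums put 20.7% of all features higher in CM relative to IM and 6.87% lower. The minimum of 100 and the count with the SOD3 feature were chosen after seeing the data. Counted with SOD3, 3 of the 10 genes were apart between CM and IM and 5 between CMT and CM, and under equal column sums or recovered reads the SOD3 feature was inside 1.5-fold. No paired analysis was possible because each group has 1 library, and for the same reason there was no replicate to leave out. Among the 10 genes the SOD3 feature had the fewest reads, and pooling leaves the variation among pigs unmeasured.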
